A study of Rattus norvegicus with 6 samples.

Results

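The 10 genes studied here belong to the smooth muscle contractile program and were followed in cardiomyocyte cultures treated with human cardiotrophin 1 (hCT1), a cytokine of the interleukin 6 family: the contractile genes Myh11, Acta2, Tagln, Cnn1, Smtn, Lmod1, Myl9 and Mylk, and the transcription factor genes Myocd and Srf. The rule that set the members used gene names and no measured value, although earlier results of these data were known when they were chosen. The platform annotation paired each of the 10 genes with 1 probe set that carried no other symbol, so the 10 genes are 10 of the 15310 probe sets with exactly 1 symbol, which stand for 14506 genes. All 6 samples of the series were used. The cells were primary cardiomyocytes from the ventricles of 2-day-old Sprague-Dawley rats, freed of part of their fibroblasts by pre-plating. They recovered overnight in growth medium and were then kept in serum-free medium for up to 24 h before treatment. Of the 6 samples, 3 received hCT1 at 0.5 nM for 24 h and 3 received control serum-free medium for the same time. The labels do not say whether the 3 samples of a group came from separate cultures, and the p-values therefore reflect the spread of these samples alone, which may be technical. A growth note shared by all samples, controls included, mentions a hypertrophic agonist. It was read as general text, since the treatment note gives the controls serum-free medium alone.

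In smooth muscle, force comes from a myosin (heavy chain encoded by Myh11, regulatory light chain by Myl9) that pulls on actin filaments (Acta2) once myosin light chain kinase (Mylk) has phosphorylated the light chain. Transgelin (Tagln), calponin (Cnn1) and smoothelin (Smtn) bind the filaments, and leiomodin 1 (Lmod1) nucleates them. Serum response factor (Srf) binds CArG boxes in the promoters of most of these genes, and myocardin (Myocd) is its coactivator in heart and smooth muscle. Acta2 and Tagln are also made by immature cardiomyocytes and by activated fibroblasts, so their RNA in a heart culture does not mark smooth muscle cells, whereas Myh11 is the most restricted of the contractile genes.

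With hCT1, limma called 5 of the 10 genes lower and 0 higher at a Benjamini-Hochberg adjusted p of 0.05, and the remaining 5 missed that threshold. The lower genes were Myh11, Smtn, Tagln, Myocd and Myl9, and they fell 1.18-fold to 1.31-fold. Over all tested probe sets, 9.84% were lower and 4.98% were higher. The members lay at percentile 49.6 or above of mean signal, and among the 7717 probe sets at least as bright as the dimmest member 14.5% were lower. When the fit and its adjustment were run without the dimmest 40% of probe sets, which left in all 10 members, 21.1% of probe sets were lower and 9.19% were higher, and the count of lower members was again 5. Among the 10 genes the log2 fold changes had a median of -0.16, against -0.003 over all tested probe sets. In the same 5 genes every hCT1 sample lay below every control sample, an order found in 20.5% of all probe sets, while 13.9% had the opposite order. At an unadjusted p under 0.05 from limma, the count of lower genes was also 5 and that of higher genes 0. The methods' one-way test without adjustment, described with the processing, called 5 members lower. Over all 15310 probe sets it called 2467 lower and 1483 higher. Without control replicate 2 the count of lower genes was 3, since Smtn (adjusted p = 0.0595) and Myl9 (adjusted p = 0.0793) no longer passed limma's test.

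**Figure D1:**
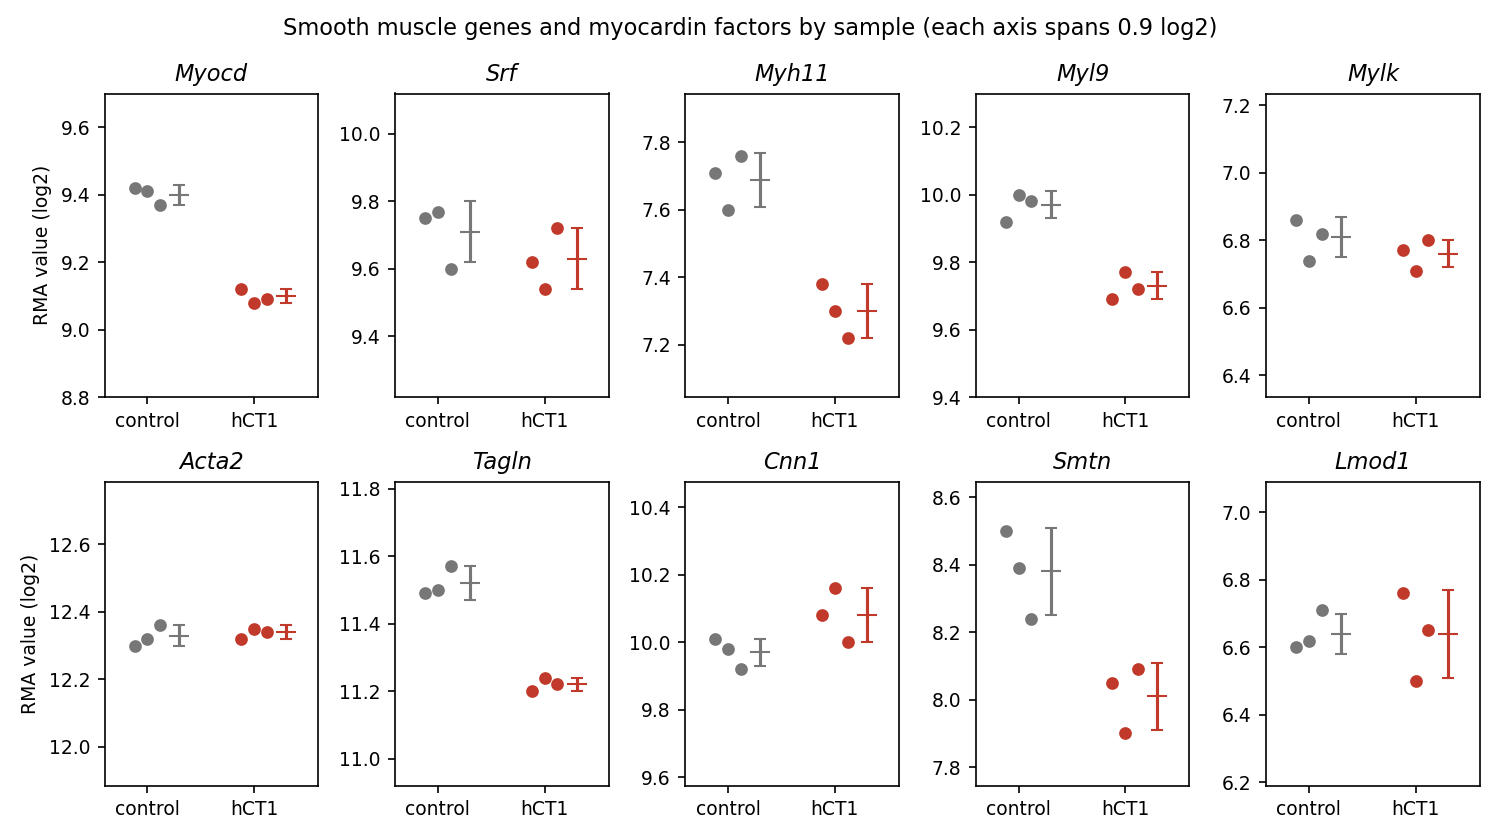
Log2 RMA value of each gene without (grey) and with (red) hCT1, 3 samples each and a point per sample, with the group mean (horizontal mark) and SD (error bar) beside the points. Each vertical axis spans the same range of log2 values, and the red points lie wholly below the grey points for Myocd, Myh11, Myl9, Tagln and Smtn.

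Of the 2 transcription factor genes, the coactivator gene fell and the gene of the DNA-binding factor did not pass the test. The log2 RMA value of Myocd (probe set 10743652) was 9.42, 9.41 and 9.37 in control replicates 1, 2 and 3, and 9.12, 9.08 and 9.09 in hCT1 replicates 1, 2 and 3. The highest hCT1 sample lay 0.25 below the lowest control sample, and the replicates of each group lay close together. The mean was 9.4 ± 0.03 without and 9.1 ± 0.02 with hCT1 (SD, n = 3 each), which made it 1.23-fold lower (log2 fold change -0.3 with SE 0.05, limma adjusted p = 0.0057). The value of Srf (probe set 10921550) was 9.75, 9.77 and 9.6 without hCT1 and 9.62, 9.54 and 9.72 with it, and the groups overlapped. Its log2 fold change was -0.08, with a 95% interval from -0.24 to 0.08 (adjusted p = 0.49 from limma). With that interval, a small fall in Srf cannot be told from none. The difference between Myocd and Srf within a sample, in log2 units, was lower by 0.22 on average with hCT1, and it was lower in every hCT1 sample than in every control sample. An exact 2-sided permutation test of that difference gave p = 0.1, the smallest that 3 samples against 3 allow.

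The Srf promoter is shown because it holds CArG boxes itself, so that Srf is among the genes that its own product can bind. The windows come from RefSeq and run from 250 bases before to 50 bases after a transcript start, and such a window was at hand for 5 of the 10 genes (Acta2, Cnn1, Smtn, Mylk and Srf). A CArG box was searched as a core of 6 bases that are each A or T, between CC and GG, which reads the same way on both strands. Capitals mark the matches in this stretch, which runs from 250 to 31 bases before the start.
Srf (GRCr8 chr9:21923826-21924045, strand +): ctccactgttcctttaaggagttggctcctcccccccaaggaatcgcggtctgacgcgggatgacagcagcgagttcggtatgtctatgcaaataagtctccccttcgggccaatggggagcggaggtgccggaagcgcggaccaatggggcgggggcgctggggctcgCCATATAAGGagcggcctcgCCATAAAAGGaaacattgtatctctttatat
The 2 matches, CCATATAAGG and CCATAAAAGG, began 81 and 61 bases before the start. Of 33469 rat promoter windows, 1.64% held at least 1 such match and 0.0209% held 2 or more.

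Of the myosin genes, those of the heavy chain and the light chain were lower, and that of the kinase missed the threshold. Myh11 (probe set 10731247) read 7.71, 7.6 and 7.76 without hCT1 and 7.38, 7.3 and 7.22 with it. All hCT1 samples were lower than all control samples, with a gap of 0.22. Its mean fell from 7.69 ± 0.08 to 7.3 ± 0.08 (SD, n = 3 each), which made it 1.31-fold lower (log2 fold change -0.39 with SE 0.07, limma adjusted p = 0.00524). By the methods' one-way test with Benjamini-Hochberg adjustment, which was added here, Myh11 missed the threshold (adjusted p = 0.0522). Myl9 (probe set 10841579) read 9.92, 10 and 9.98 without hCT1 and 9.69, 9.77 and 9.72 with it. The groups did not overlap, and Myl9 was 1.18-fold lower (log2 fold change -0.24 with SE 0.05, limma adjusted p = 0.0196). Among the fits with 1 sample left out, besides that without the control sample named above, Myl9 missed the threshold without hCT1 replicate 1 (adjusted p = 0.0708 from limma) or hCT1 replicate 3 (adjusted p = 0.0587 from limma). Mylk, the gene of the kinase that acts on this light chain (probe set 10754510), read 6.86, 6.74 and 6.82 without hCT1 and 6.77, 6.71 and 6.8 with it, and the groups overlapped. Its log2 fold change was -0.05, with a 95% interval from -0.18 to 0.08 (adjusted p = 0.614 from limma). Heart muscle has a light chain kinase gene of its own besides Mylk, and RNA does not measure phosphorylation. The difference between Myl9 and Mylk within a sample was lower by 0.19 (log2) on average with hCT1, with the groups apart (exact 2-sided permutation p = 0.1, the smallest possible), and the 95% intervals of the 2 genes overlapped, from -0.36 to -0.12 for Myl9 and from -0.18 to 0.08 for Mylk.

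Acta2, the gene of smooth muscle alpha-actin (probe set 10940457), missed the threshold, with an estimate near 0. It read 12.3, 12.32 and 12.36 without hCT1 and 12.32, 12.35 and 12.34 with it, so that the groups overlapped fully. The log2 fold change was 0.01, with a 95% interval from -0.11 to 0.13 (adjusted p = 0.931 from limma), which holds changes of 0.93-fold to 1.09-fold. Its signal lay at percentile 99.9, with 14 tested probe sets brighter than it, and the highest value of the whole table was 12.78. Whether the signal is compressed at this brightness was not tested. The actin genes are near copies of each other, and probes of Acta2 can share signal with the cardiac and skeletal actin genes.

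Tagln, also among the brightest probe sets (percentile 98.5), was lower with hCT1. It read 11.49, 11.5 and 11.57 without hCT1 and 11.2, 11.24 and 11.22 with it (probe set 10917034). The groups lay 0.25 apart. Its mean went from 11.52 ± 0.05 to 11.22 ± 0.02 (SD, n = 3 each), which made it 1.23-fold lower (log2 fold change -0.3 with SE 0.05, limma adjusted p = 0.00688). The difference between Acta2 and Tagln within a sample was higher by 0.31 (log2) with hCT1, with the groups apart (exact 2-sided permutation p = 0.1, the smallest possible).

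The Acta2 promoter is shown because its CArG boxes depart from the strict form. Here the search allowed at most 1 G or C among the 6 bases of the core, a form chosen after this promoter had been seen. Capitals mark the matches.
Acta2 (GRCr8 chr1:241172534-241172753, strand -): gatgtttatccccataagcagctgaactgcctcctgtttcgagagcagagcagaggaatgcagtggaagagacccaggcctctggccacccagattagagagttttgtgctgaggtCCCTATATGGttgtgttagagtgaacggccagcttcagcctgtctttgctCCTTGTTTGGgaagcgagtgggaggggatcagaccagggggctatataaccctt
The matches, CCCTATATGG and CCTTGTTTGG, began 134 and 84 bases before the start, and neither has a core of A and T alone. By this wider form, 9.42% of all windows held at least 1 match and 0.846% held 2 or more, the Srf and Acta2 windows among them. Srf and Acta2, the 2 genes with matches, both missed the threshold, as did Cnn1 and Mylk, so that 1 of the 5 genes with a window was lower.

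The calls for the other filament proteins differed. Smtn (probe set 10777972) read 8.5, 8.39 and 8.24 without hCT1 and 8.05, 7.9 and 8.09 with it. All hCT1 samples were lower, although control replicate 3 lay only 0.14 above hCT1 replicate 3. The mean fell from 8.38 ± 0.13 to 8.01 ± 0.1 (SD, n = 3 each), which made it 1.29-fold lower (log2 fold change -0.36 with SE 0.08, limma adjusted p = 0.0182). Smtn also missed the threshold without control replicate 1 (adjusted p = 0.0618 from limma) or hCT1 replicate 2 (adjusted p = 0.0643 from limma), and by the methods' one-way test with adjustment (adjusted p = 0.119). Cnn1, the calponin gene (probe set 10908596), missed the threshold and read 10.01, 9.98 and 9.92 without hCT1 and 10.08, 10.16 and 10 with it, with the lowest hCT1 sample 0.01 below the highest control sample. Its log2 fold change was 0.11, with a 95% interval from -0.03 to 0.25 (adjusted p = 0.27 from limma). Calponin and transgelin are related proteins, and the within-sample difference between Tagln and Cnn1 was lower by 0.41 (log2) with hCT1, with the groups apart (exact 2-sided permutation p = 0.1, the smallest possible). Lmod1 (probe set 10764214) read 6.6, 6.62 and 6.71 without hCT1 and 6.76, 6.5 and 6.65 with it. Its hCT1 samples enclosed the control samples on both sides, and the log2 fold change was -0.01, with a 95% interval from -0.17 to 0.16 (adjusted p = 0.965 from limma). The spread of Lmod1 in hCT1-treated samples (SD 0.13, n = 3) and that of Smtn in control samples (SD 0.13, n = 3) were the widest of the 10 genes.

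**Figure D2:**
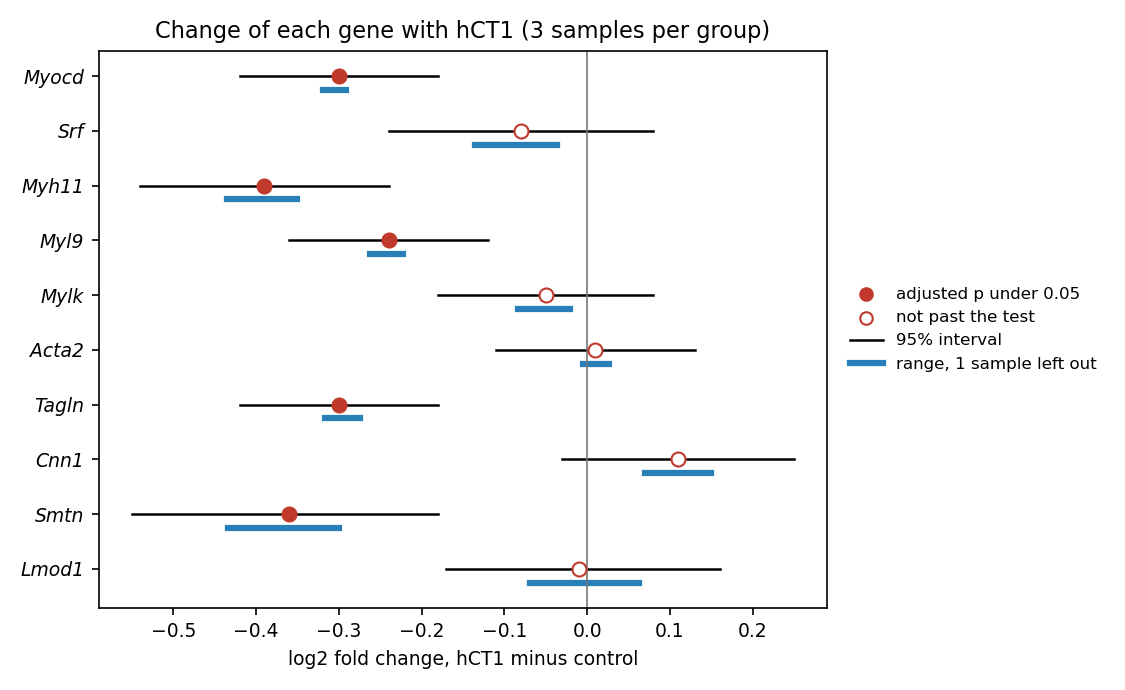
Change of each gene in log2 units, hCT1 minus control (3 samples per group), with its 95% interval from limma (black line) and the range of the estimate when 1 sample is left out (blue line); filled points passed an adjusted p of 0.05. The filled points lie between -0.39 and -0.24, and the open points between -0.08 and 0.11.

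The within-sample differences named above are 4 of the 45 pairs that the 10 genes form. In 23 of the 45 pairs the difference between the genes did not overlap between the groups, each with an exact p of 0.1, which is 0.196 after Benjamini-Hochberg adjustment over the 45 pairs. All 23 were among the 25 pairs of 1 lower and 1 other member, so they largely restate the calls of the single genes. No pair can pass with 3 samples against 3. The pairs were formed after the values of the single genes were known.

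Smtn was the one lower gene with a promoter window at hand, and its window is printed for comparison with those of Srf and Acta2, over the same distance from the start.
Smtn (GRCr8 chr14:82644545-82644764, strand -): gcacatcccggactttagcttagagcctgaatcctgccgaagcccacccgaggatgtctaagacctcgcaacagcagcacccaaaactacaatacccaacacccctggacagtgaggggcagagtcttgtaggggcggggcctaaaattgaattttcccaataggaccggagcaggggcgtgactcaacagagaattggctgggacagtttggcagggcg
No capitals appear, since neither form of the CArG box was matched in it. A search for TTCNNNGAA, the letters that STAT proteins bind, also found nothing in the Smtn window. That search gave 1 match among the 5 windows, TTCCCAGAA in Cnn1, 228 bases before the start, and 8.87% of all windows held at least 1. The windows of Cnn1 and Mylk held no CArG match of either form. That of Mylk lies at a start within the gene. A match is a description of letters, and a window without one says nothing on more distant sites.

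**Figure D3:**
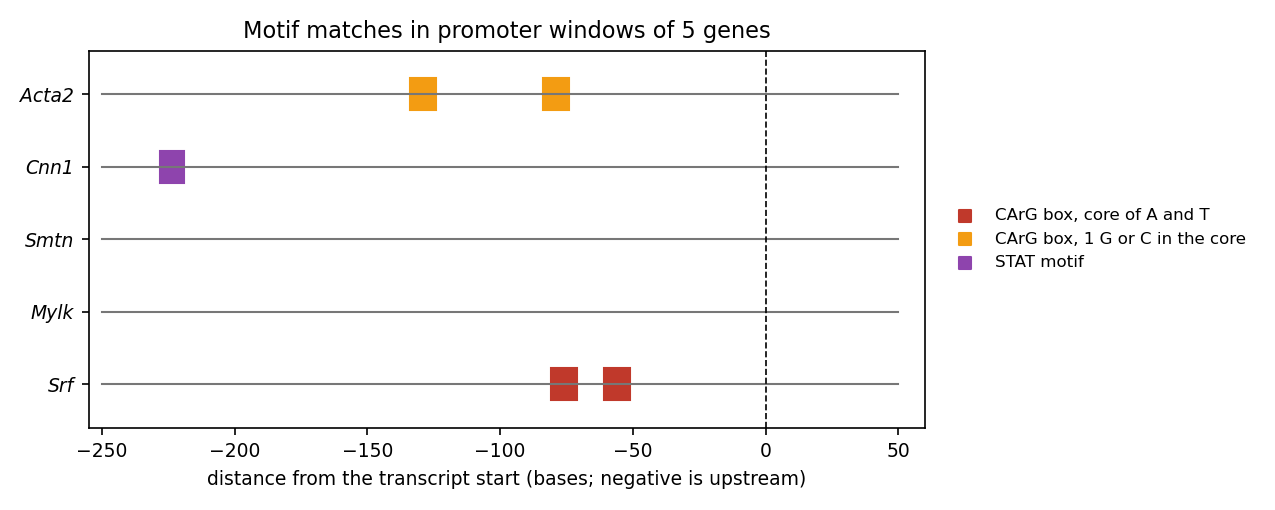
Motif matches in the promoter windows of 5 genes, plotted by distance in bases from the transcript start (dashed line), with negative values upstream. Srf holds 2 CArG boxes with a core of A and T, at 81 and 61 bases before the start, Acta2 holds 2 with 1 G or C in the core, Cnn1 holds 1 STAT motif, and Smtn and Mylk hold none of these.

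Other genes listed as smooth muscle contractile or cytoskeletal genes were lower in part. The list is not restricted to genes of smooth muscle, so its count does not describe smooth muscle cells alone. Of 26 measured, 7 were lower, 1 was higher and 18 missed the threshold, and the median log2 fold change was -0.09. With 1 sample left out, 5 to 6 were lower, and by the methods' one-way test with adjustment 3 were lower. Over all genes, each read from its brightest probe set, 9.58% were lower and 5.09% higher. Among probe sets at least as bright as the dimmest member, 14.5% were lower. The furthest was Csrp2, a LIM protein of smooth muscle, which read 8.24, 8.15 and 8.02 without hCT1 and 7.73, 7.74 and 7.72 with it (log2 fold change -0.41, adjusted p = 0.00388 from limma). Tpm2, the beta-tropomyosin gene, fell from 10.25 ± 0.02 to 9.87 ± 0.07 (SD, n = 3 each, with a limma adjusted p = 0.00289). Ppp1r14a, which encodes CPI-17, the inhibitor of myosin phosphatase in smooth muscle, fell from 7.33 ± 0.13 to 6.94 ± 0.02 (SD, n = 3 each, with a limma adjusted p = 0.00774). Actg2, the actin gene of visceral smooth muscle, read 9.69, 9.56 and 9.53 without hCT1 and 9.33, 9.29 and 9.28 with it, a log2 difference of -0.29 (limma adjusted p = 0.0128). Its groups did not overlap, unlike those of Acta2. Whether its probes share signal with the other actin genes was not tested. The other lower genes, which the naming rule does not cover, were Lmod2 (-0.28), Myh10 (-0.23) and Ppp1r12b (-0.28), the last the gene of a myosin phosphatase subunit. The higher gene was Des, the gene of the intermediate filament protein desmin, which also serves the cardiac Z-disc. It went from 11.65 ± 0.02 to 11.93 ± 0.06 (SD, n = 3 each), a log2 difference of 0.28 (limma adjusted p = 0.0109). It too falls outside the rule and was named after its value was seen.

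Of 19 measured partners of SRF and regulators of myocardin, 4 were lower, 0 were higher and 15 missed the threshold, and the median log2 fold change was -0.1. The share lower was 21.1%, against 9.58% over all genes and 14.5% among probe sets at least as bright as the dimmest member. At an unadjusted p under 0.05 from limma, 6 of the 19 passed. The unadjusted one-way test called 7 of the 19 lower, beside 2467 lower and 1483 higher of all 15310 probe sets. The 4 genes lower by limma's adjusted test were Heyl (log2 fold change -0.45, adjusted p = 0.0257 from limma), Mef2d (-0.34), Fhl2 (-0.27) and Foxo4 (-0.27). Heyl is a Notch target that represses transcription, and Mef2d is a MADS-box factor related to SRF. Fhl2 is a LIM protein that binds SRF, and Foxo4 is a forkhead factor that represses myocardin. Heyl was dim, at percentile 40.8 of signal. The list holds both activators and repressors, so its count has no single direction for the contractile genes. Leaving out control replicate 1, control replicate 2 or hCT1 replicate 2 lowered the count to 2, and leaving out control replicate 3 raised it to 7. The myocardin-related genes Mrtfa and Mrtfb were not analysed here, since no probe set was paired with them.

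Of 19 measured immediate early and cytoskeletal targets of SRF, 3 were lower, 1 was higher and 15 missed the threshold, and the median log2 fold change was -0.03. The share lower was 15.8%, against 9.58% over all genes. It was close to the 14.5% among probe sets at least as bright as the dimmest member. Nr4a1, an orphan nuclear receptor gene of the immediate early class, read 6.81, 6.68 and 6.48 without hCT1 and 6.05, 6.04 and 5.99 with it, a log2 fold change of -0.63 (1.55-fold lower, adjusted p = 0.00128 from limma). Ier2 (-0.26) and Dusp1 (-0.23), the gene of a phosphatase of MAP kinases, were also lower. Junb, an AP-1 subunit gene, went from 7.77 ± 0.04 to 8.05 ± 0.07 (SD, n = 3 each; log2 fold change 0.29, adjusted p = 0.0133 from limma). With 1 sample left out, 1 gene was lower where that sample was control replicate 1 or any hCT1 replicate and 2 where it was control replicate 2, and Junb no longer passed without control replicate 2 or hCT1 replicate 1. The platform annotation named none of the 12 micro RNA genes in a further list. Over the 64 genes measured in the 3 lists with measured genes, 14 were lower (21.9%) and 2 were higher, beside 9.58% lower and 5.09% higher over all genes and 14.5% lower among probe sets at least as bright as the dimmest member. With replicate 1 or replicate 2 of either group left out 9 were lower. The higher genes numbered 1 when control replicate 2 or hCT1 replicate 1 was left out.

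**Figure D4:**
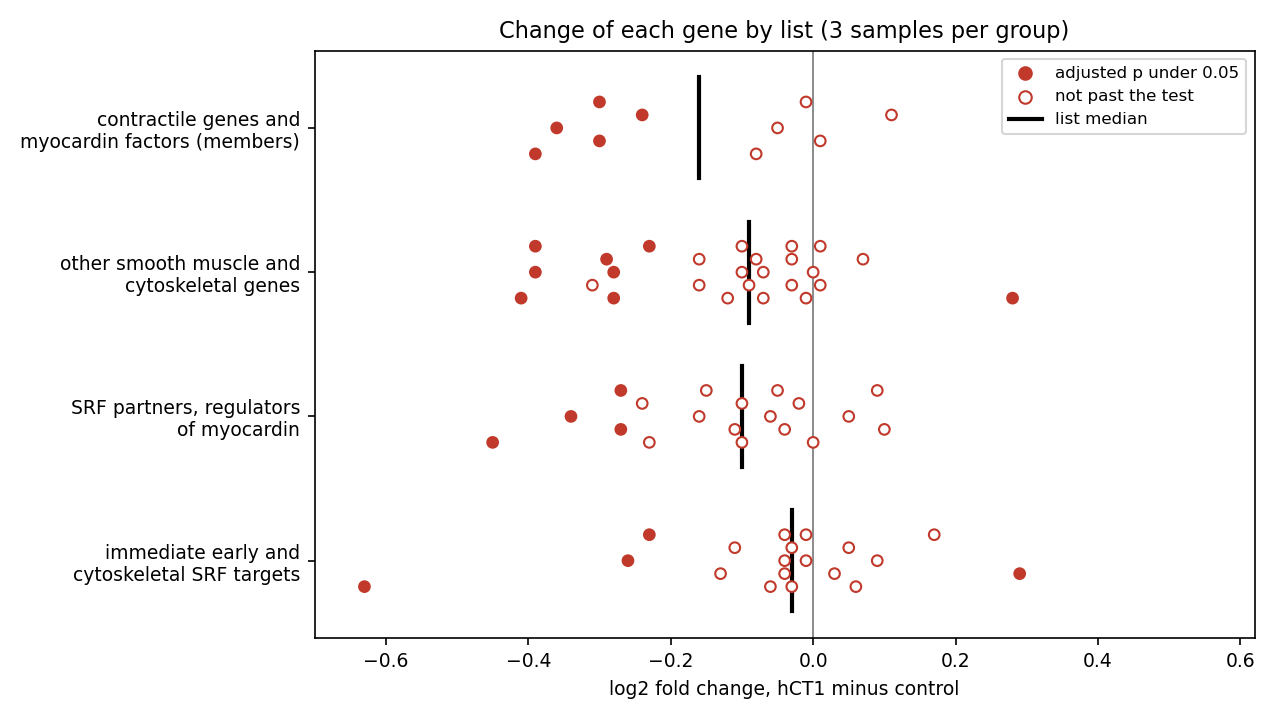
Log2 fold change by list, a point for each gene, as hCT1 minus control (3 samples per group); filled points passed an adjusted p of 0.05 and black lines are list medians. The 10 genes described first have a median of -0.16, and the other lists have medians between -0.1 and -0.03.

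The cultures hold other cells than cardiomyocytes, and in bulk RNA fewer cells of a type and less RNA per cell cannot be told apart. Cardiomyocyte markers were bright (Actc1, also counted among the SRF targets, lay at percentile 99.8 of signal), and so was the fibroblast marker Col1a1, at percentile 99.1. Of 12 fibroblast markers, 0 passed limma's test and 3 had an unadjusted p under 0.05, with a median log2 fold change of -0.03. Over all 15310 probe sets, the unadjusted one-way test called 2467 lower and 1483 higher. The summed linear signal of the fibroblast markers was 10282 to 10799 without hCT1 and 9760 to 10040 with it, a ratio of 0.945. Its groups lay apart (exact 2-sided permutation p = 0.1, the smallest possible). As a mean of log2 values the same markers overlapped, at 8.34 to 8.38 without hCT1 and 8.29 to 8.35 with it (exact 2-sided permutation p = 0.3). Of 10 pericyte and mural markers, 1 was higher (Abcc9, log2 fold change 0.29) and 0 were lower. A dimmer probe set of Abcc9, not in the sum, was also higher (0.56). Whether Abcc9 marks mural cells in these cultures was not tested. The sum of the 10 markers was 3527 to 3579 without hCT1 and 3631 to 3733 with it, a ratio of 1.033 (exact 2-sided permutation p = 0.1). The 10 log2 fold changes had a median of 0.02. As a mean of log2 values the pericyte and mural markers overlapped between the groups, at 7.32 to 7.38 without hCT1 and 7.35 to 7.44 with it (exact 2-sided permutation p = 0.2). Of 11 cardiomyocyte markers, 4 were lower and 0 higher: Tnni3 (-0.62), Myl2 (-0.48), Myh6 (-0.45) and Mybpc3 (-0.31). Over all genes 9.58% were lower, and among probe sets at least as bright as the dimmest member 14.5%. The sum of the 11 markers was 28406 to 28605 without hCT1 and 25756 to 27076 with it, a ratio of 0.925 (exact 2-sided permutation p = 0.1). As a mean of log2 values they were lower by 0.207, at 10.96 to 10.99 without hCT1 and 10.73 to 10.8 with it (exact 2-sided permutation p = 0.1). The part of these markers in the fall of Myh11, Smtn, Tagln, Myocd and Myl9 was not tested.

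**Figure D5:**
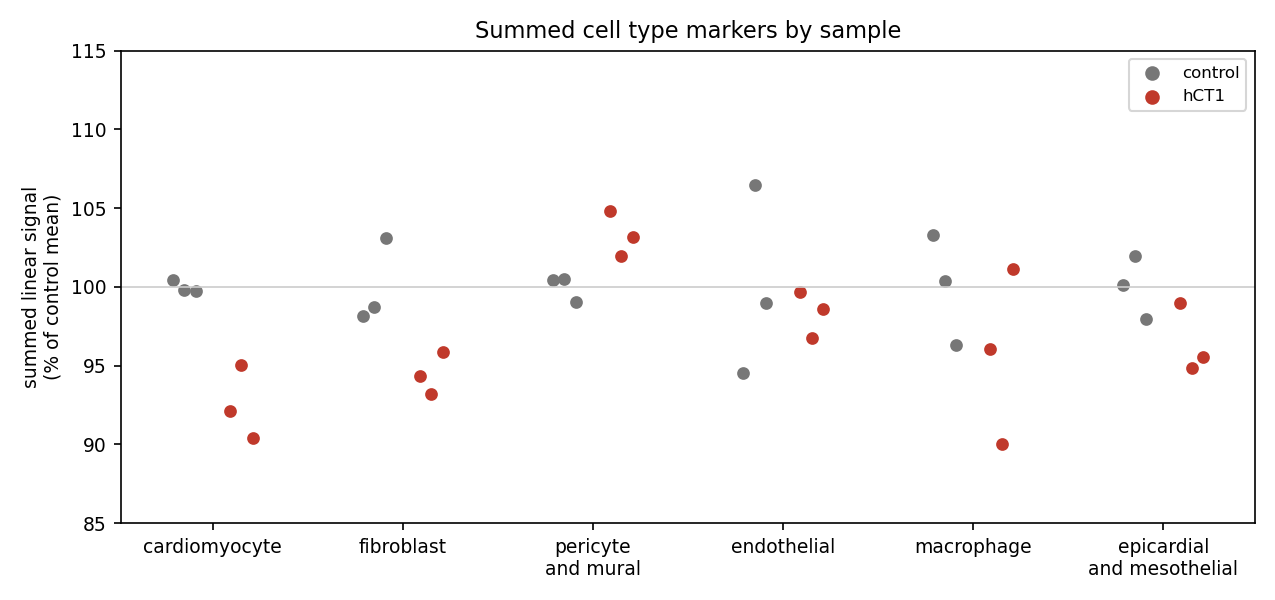
Summed linear signal of the markers of each cell type, in percent of the control mean, without (grey) and with (red) hCT1, 3 samples each. The groups lie apart for the cardiomyocyte (ratio 0.925), fibroblast (0.945) and pericyte and mural (1.033) markers, and overlap for the others.

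The summed markers of further cell types overlapped between the groups. The sum of 9 endothelial markers was 1217 to 1370 without hCT1 and 1245 to 1283 with it (exact 2-sided permutation p = 0.8), with Esam the brightest and Emcn lower (log2 fold change -0.47). The sum of 10 macrophage markers, 8 of them under the 40th percentile of signal and Cd14 the brightest, was 400 to 429 and 374 to 420 (exact 2-sided permutation p = 0.4). The sum of 7 epicardial and mesothelial markers was 690 to 718 and 668 to 697 (exact 2-sided permutation p = 0.2), with Msln (-0.29) and Aldh1a2 (-0.25) lower. In the same list Krt19 was higher by 1.82, from a control mean of 4.52 near the low end of the scale. The mean of the 7 log2 values, in which Krt19 weighs more, was higher by 0.151 with the groups apart.

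The genes whose values ran most like the mean standardised value of the 10 genes were sought among 8577 other genes at or above the 40th percentile of signal. They were Selenos (Pearson's r 0.998), Ddi2 (0.996), Fbxl22 (0.995), Pcdh7 (0.995) and Rpl34 (0.994), each over the 6 samples. This is a description without a test, since the 6 samples fall into 2 groups that carry the likeness, and 1029 of the 8577 genes had an r of 0.9 or more. The mean standardised value itself was 0.31 to 0.51 without hCT1 and -0.62 to -0.34 with it.

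Over the whole table, Pearson's r between samples was 0.997 to 0.998 within a group and 0.994 to 0.996 between groups. After another round of quantile normalization, the share of higher probe sets among those called was 44.4% in place of 33.6%, and it was 41% after centring each array on its median. The same 5 members were lower under both.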

How the data were processed

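Each of the 6 samples gave 1 Affymetrix whole-transcript rat array. The authors made the deposited log2 values by RMA, which corrects background, normalizes quantiles and summarises probes, using Affymetrix Expression Console; versions and the genome build are not given in the sources used here. The values were used as deposited, without detection calls. Of 29215 probe sets, 15310 had exactly 1 symbol and were tested, 323 had several and 13582 were unnamed. The Entrez identifier matched 15279 of the 15310, and all 10 members, to the RefSeq gene table (GRCr8), from which promoter windows also come.

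hCT1 and control samples were compared by limma 3.58.1 (R 4.3.3, statmod 1.5.0; lmFit, then eBayes, 2-sided), and p-values were adjusted by Benjamini-Hochberg across all 15310 probe sets. Folds are antilogs of log2 differences, which arrays understate for dim probe sets. The brightest probe set stood for a gene. Exact permutation tests used scipy 1.17.1. The fit was tested on simulated data, where recovery was required only for planted changes larger than those of the members. The members and lists were chosen with earlier results of these data known, and 1 further list is not reported here. Named are all members, the 4 largest changes that passed in each pathway list, the brightest marker of each list and those that passed, and the 5 genes most like the members. The number of arrays limits the precision. The alternatives were 2 other fits, the methods' one-way test with and without adjustment, a replicate block and a filter on dim probe sets. Further ones were all probe sets, 2 normalizations, averaged probe sets and leaving out each sample. The methods name one-way ANOVA for multiple-group comparisons and no test for the arrays. With 2 groups it was run here as an equal-variance t-test.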

Additional observations from a re-analysis of the deposited data

How the results depend on the processing

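The 5 lower genes kept their direction in all 16 alternatives, with log2 fold changes of -0.435 to -0.329 for Myh11, -0.317 to -0.275 for Tagln, -0.434 to -0.3 for Smtn, -0.262 to -0.22 for Myl9 and -0.319 to -0.283 for Myocd. Tagln and Myocd passed in 16 of 16, Myh11 in 15, and Smtn and Myl9 in 12 each. None of the other 5 members passed in any. The count of lower members was 3 by the methods' one-way test with adjustment, where Myh11 (adjusted p = 0.0522) and Smtn (adjusted p = 0.119) missed the threshold, and 3 to 5 with 1 sample left out. Samples with the same replicate number did not deviate together (correlations of -0.025, 0.046 and -0.285). With so few samples these values cannot exclude that the numbers pair the samples, and the labels do not say. With the replicate block 4 members were lower, without Myl9 (adjusted p = 0.0508), and 9 genes of the pathway lists were lower in place of 14.

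The count of lower genes in the pathway lists was also 9 over all probe sets, 6 by the one-way test with adjustment, 23 without it, and 9 to 16 with 1 sample left out. The count of higher genes, 2 in the report, was 4 by the unadjusted one-way test and 1 to 2 with 1 sample left out. Lmod1 changed sign with array weights (0.009), quantile normalization (0.063) and median centring (0.014), and Mylk with quantile normalization (0.024). With 1 sample left out Lmod1 ranged from -0.069 to 0.062 and Acta2 from -0.005 to 0.026. As a mean of log2 values, the marker differences were 0.009 (endothelial), 0.002 (macrophage) and 0.151 (epicardial and mesothelial), opposite to the sums. Over all tested probe sets, 675 to 2467 were lower in place of 1506, and 376 to 1483 higher in place of 762. The cause of these shifts was not tested.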
